A study of Mus musculus with 10 samples.

Results

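The 9 genes described here encode secreted or membrane-shed growth factors: Pdgfa, Pdgfb, Pdgfc, Vegfb, Hbegf, Bmp2, Hgf, Tnfsf12 and Egfl7. They were chosen by name as ligands with trophic roles, with earlier results of these data known, and are 9 of the 49315 genes in the deposited count tables. All 9 were matched to a single Ensembl identifier. RNA was measured by sequencing in microglia, macrophages that live in brain tissue, after flow cytometric sorting from brains of wild-type C57BL/6 mice. The groups were CD11c+ cells (3 libraries) and CD11c- cells (3 libraries) at postnatal day 5 (P5), and CD11c+ cells (2 libraries) and CD11c- cells (2 libraries) at 9 months. CD11c, an integrin chain, is the product of Itgax, and the study asked how the CD11c+ subset differed from the CD11c- subset at each age. No treatment or engineered allele is given for any group. The labels give the SMART-Seq v4 low-input kit for the 9-month libraries only, so age and any difference in library preparation cannot be told apart, and the ages were not tested against each other within CD11c+ or CD11c- cells. The labels do not say whether replicates came from separate animals, so a p-value here reflects only how far these samples scatter, and that scatter may be technical.

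Platelet-derived growth factors (PDGFs) act as dimers on receptor tyrosine kinases: PDGF-A drives oligodendrocyte precursors, and PDGF-B recruits pericytes to vessels. VEGF-B binds the receptor FLT1, HB-EGF the EGF receptor, hepatocyte growth factor (HGF) the receptor MET, and TWEAK (the product of Tnfsf12) the receptor Fn14, encoded by Tnfrsf12a. BMP2 signals through serine-threonine kinase receptors to SMAD proteins, and EGFL7 is a secreted protein best known from endothelial cells, where it acts on matrix and Notch signalling. Brain macrophages are one source of such ligands for the glia, neurons and vessels around them.

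Library totals ran from 11892082 to 25483573 counts, apart from P5 CD11c+ replicate 2 with 2619610. That library stood apart, with 23033 genes reaching 1 CPM (counts scaled to the library total), where the other 9 had 12762 to 14735, and each member's P5 result is also given without it. Itgax averaged 148.1 CPM in P5 CD11c+ and 41.5 CPM in P5 CD11c- libraries, and 24.4 CPM in 9-month CD11c+ and 4.504 CPM in 9-month CD11c- libraries. The microglial genes Cx3cr1 and P2ry12 were detected in every group, with mean Cx3cr1 at 3894 and 2822 CPM in P5 CD11c+ and CD11c- libraries and 6272 and 1942 CPM in 9-month CD11c+ and CD11c- libraries. The 20 homeostatic microglia markers together took 1.5 to 2.09% of counts in P5 CD11c+ and 1.88 to 3.26% in P5 CD11c- libraries. Of the 20, 1 had a P5 log2 fold change of CD11c+ over CD11c- above 0, and the median was -0.86. In 9-month libraries those markers took 8.1 to 8.74% in CD11c+ and 2.79 to 2.81% in CD11c- cells. The 25 markers of border-associated macrophages, which line the meninges and brain vessels, took 1.92 to 2.36% of counts in P5 CD11c+ and 0.183 to 0.341% in P5 CD11c- libraries. At 9 months they took 0.254 to 0.256% in CD11c+ and 0.0694 to 0.0797% in CD11c- libraries. Mitochondrially encoded genes took 0.771 to 2.79% of counts in P5 CD11c+ and 7.15 to 28.0% in P5 CD11c- libraries. Member CPM was also computed without these counts, but no fit was. Mean Pdgfb then went from 91.9 to 111.8 CPM in P5 CD11c- and from 41.7 to 42.7 CPM in P5 CD11c+ libraries. Mean Tnfsf12 went from 8.995 to 11.2 CPM and from 22.3 to 22.7 CPM in the same groups. Beyond this, the part of mitochondrially encoded genes in the P5 results was not tested. Neutrophil markers took 0.222 to 0.318% of counts in 9-month CD11c+ and 14.2 to 19.2% in 9-month CD11c- libraries, a cell type that the label microglia does not cover.

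**Figure D1:**
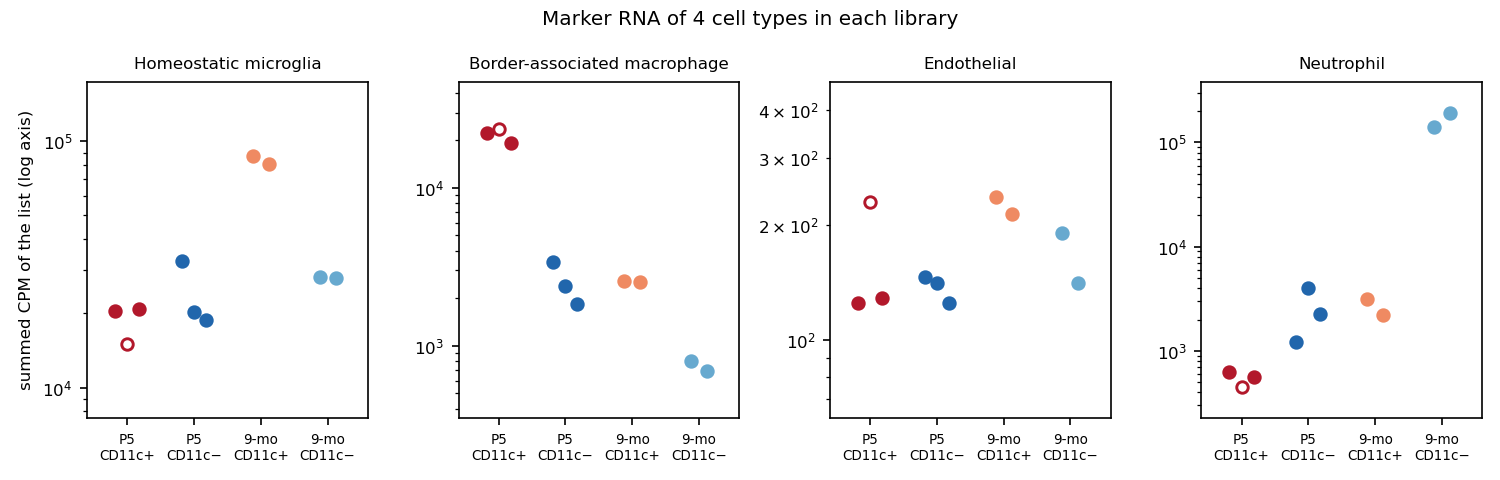
Summed CPM of 4 marker lists in each library on log axes: 20 homeostatic microglia, 25 border-associated macrophage, 22 endothelial and 22 neutrophil genes, with P5 CD11c+ replicate 2 as an open circle. Border-associated macrophage markers were highest in the 3 P5 CD11c+ libraries and neutrophil markers in the 2 9-month CD11c- libraries.

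At P5, Egfl7 rose in CD11c+ cells and was the only member of the 9 that edgeR called; its log2 fold change of CD11c+ over CD11c- was 3.29 ± 0.29 (SE; edgeR adjusted p = 0.018). For background, 0.299% of the 15410 genes tested at P5 were called higher and 0% lower. At an unadjusted p under 0.05, 409 genes were lower, and DESeq2 called 162 lower. Bmp2 had a larger fold change, 5.06 ± 0.68, just short of the threshold (edgeR adjusted p = 0.053). In CPM, every CD11c+ library was above every CD11c- library for Bmp2, Tnfsf12 and Egfl7, which holds for 11.7% of genes tested, and below for Pdgfb, which holds for 3.64%. The groups overlapped for the other 5. Without P5 CD11c+ replicate 2, Bmp2, Tnfsf12 and Egfl7 rose and Pdgfb fell, where 5.06% of 15841 genes were called higher and 4.42% lower.

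At 9 months, Hbegf and Pdgfa rose in CD11c+ cells and Hgf fell, so 3 of the 9 passed. There 14.8% of 15740 genes were called higher and 18.2% lower, so a share of 3 in 9 was close to the 33% called in either direction. In CPM, the 2 CD11c+ libraries were above the 2 CD11c- libraries for 8 members and below for Hgf, against 49.4% and 23.7% of all genes tested. The rise of Hbegf and Pdgfa is relative to all genes. Homeostatic microglia markers also rose there, 20 of 20, with a median log2 fold change of 1.32, and scaled to the summed counts of that list Hbegf was at 0.00 (edgeR adjusted p = 0.996), Pdgfa at -0.32 (edgeR adjusted p = 0.38) and Hgf at -2.98 (edgeR adjusted p = 0.000117). On that scale the median of all genes was -1.18, with 0.02 on the TMM scale used elsewhere, so a 9-month rise smaller than this shift, in members or listed genes, is a decrease there. In these bulk samples, fewer cells of a type and less RNA per cell cannot be told apart.

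**Figure D2:**
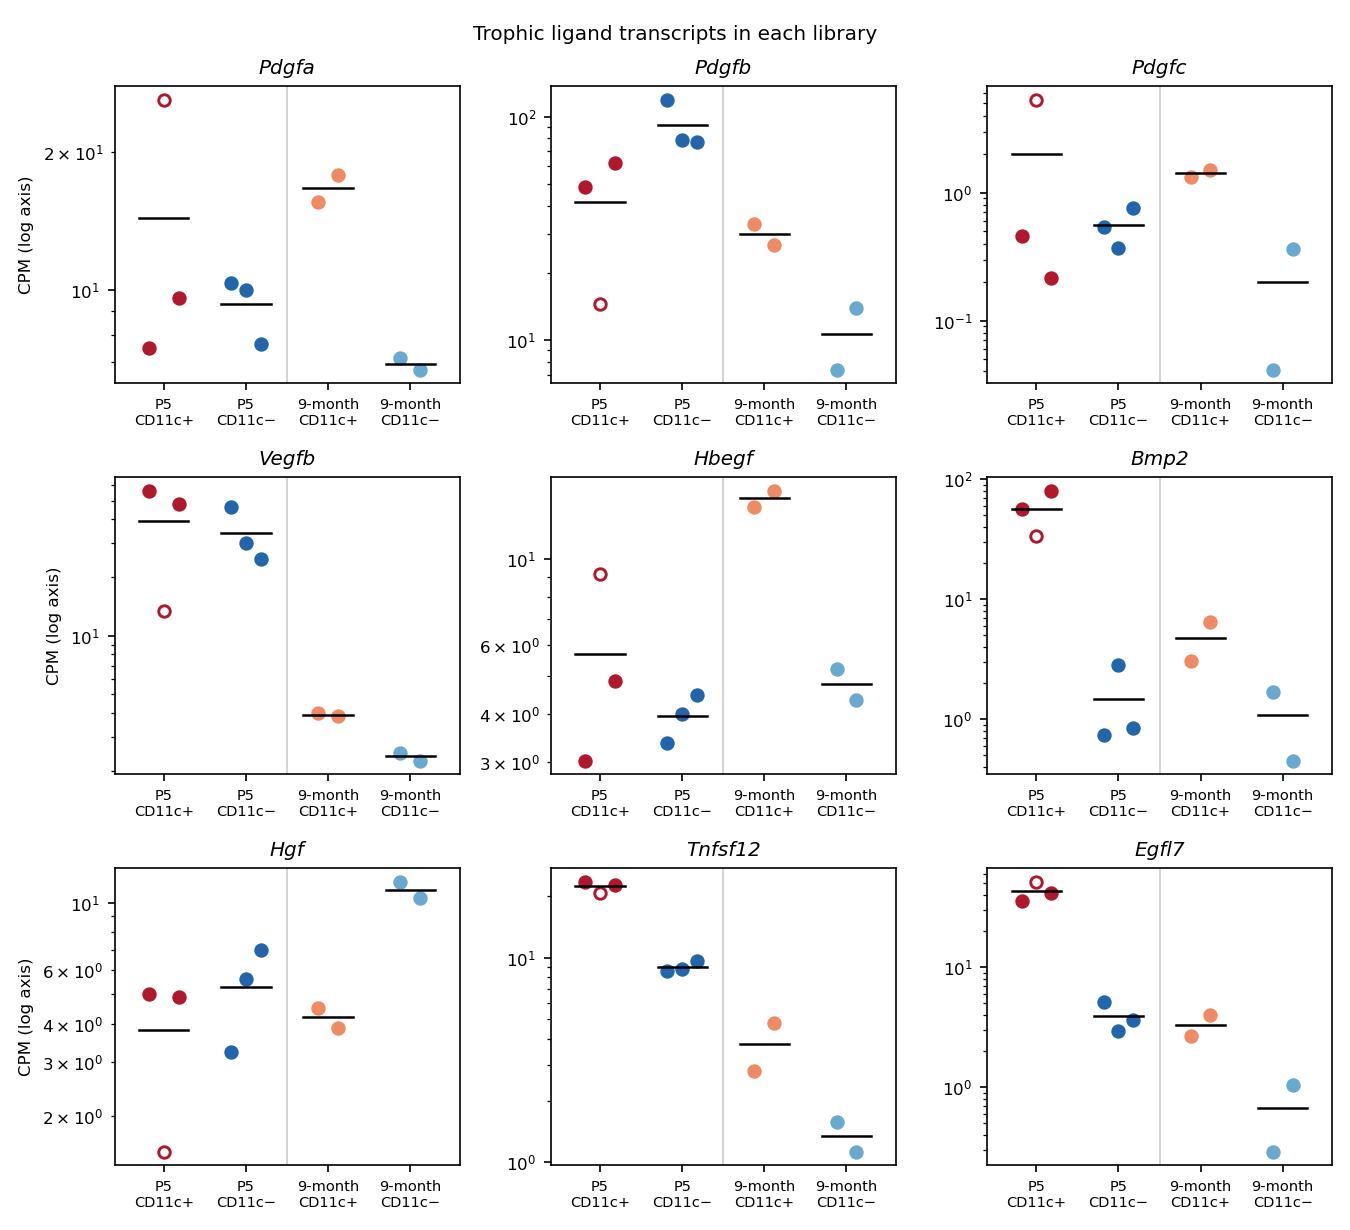
CPM of each member in each library on log axes, in P5 CD11c+, P5 CD11c-, 9-month CD11c+ and 9-month CD11c- groups, with bars at group means and P5 CD11c+ replicate 2 as an open circle. Egfl7 and Bmp2 separated the P5 groups, Hgf was highest in the 2 9-month CD11c- libraries, and Pdgfb was lower in P5 CD11c+ than in P5 CD11c- libraries and higher in 9-month CD11c+ than in 9-month CD11c- libraries.

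**Figure D3:**
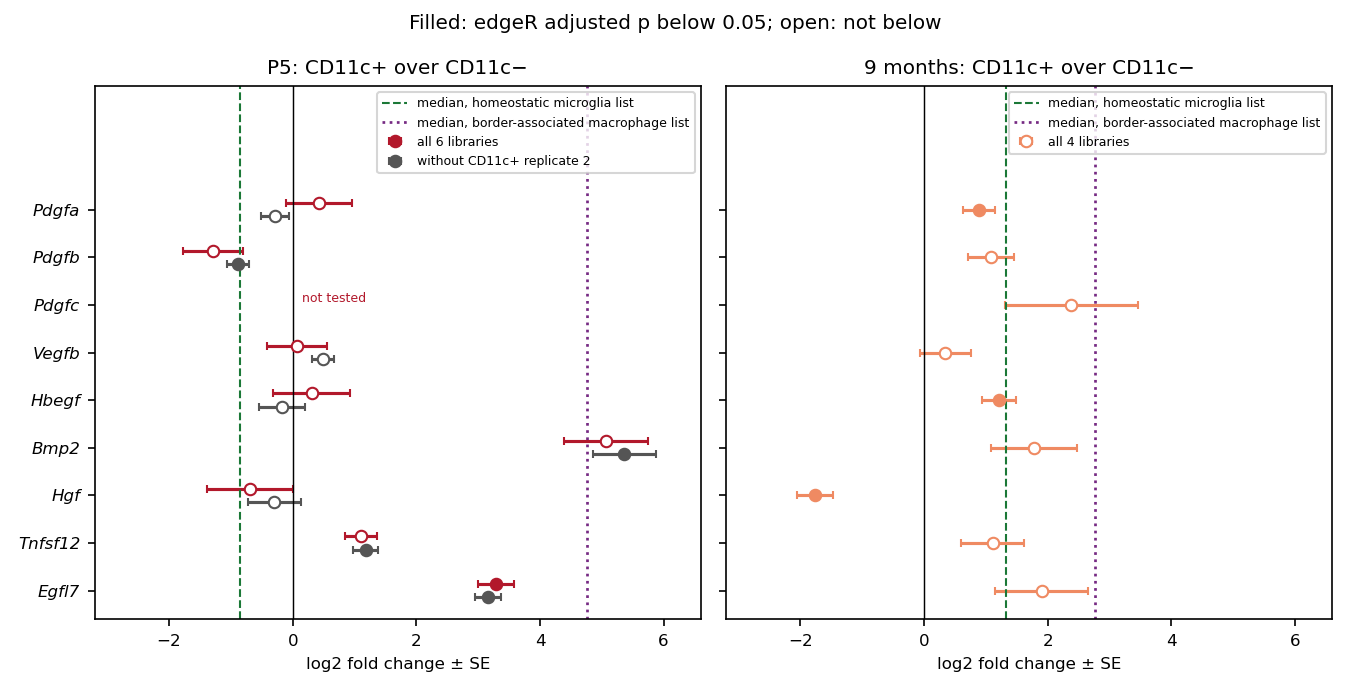
Log2 fold changes of CD11c+ over CD11c- with SE for the 9 members at P5 (all 6 libraries, and without CD11c+ replicate 2) and at 9 months (4 libraries); filled symbols passed an edgeR adjusted p of 0.05. Lines mark the medians of the homeostatic microglia (-0.86 and 1.32) and border-associated macrophage (4.76 and 2.76) lists at P5 and 9 months; Bmp2 lay past the macrophage median at P5, and the members called below 0 were Hgf at 9 months and, without CD11c+ replicate 2, Pdgfb at P5.

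Compared per kilobase of gene length (RPKM), Vegfb had the highest mean of the 9 in P5 CD11c+ libraries, 24.5 ± 14.2 RPKM (SD, n = 3), followed by Bmp2, Tnfsf12, Pdgfb and Egfl7. Neighbours in the order of these 5 overlapped in single libraries. Egfl7 and Pdgfa did not overlap: the lowest Egfl7 library had 9.88 RPKM and the highest Pdgfa library 8.32 RPKM. The order and most of the overlap depended on replicate 2. In replicates 1 and 3, Vegfb (35.13 and 30.01 RPKM) lay above Bmp2 (15.88 and 22.57 RPKM) without overlap. Pdgfb (16.61 and 21.29 RPKM) lay above Tnfsf12 (15.52 and 14.96 RPKM) there, and still overlapped Bmp2. Tnfsf12 lay above Egfl7 (9.88 and 11.7 RPKM) in these libraries without overlap. In P5 CD11c- libraries Pdgfb led with 31.5 ± 8.23 RPKM (SD, n = 3), overlapping Vegfb, and Tnfsf12 came next at 5.94 ± 0.342 RPKM without overlap. RPKM uses the full gene length, but Tnfsf12 shares 48.3% of its exon bases with a same-strand gene. Pdgfa shares 26.1% with an antisense gene, so the ranks of these 2 members are uncertain to that extent. Bmp2 was second in P5 CD11c+ libraries at 16.0 ± 6.56 RPKM and eighth of 9 in P5 CD11c- libraries at 0.411 ± 0.327 RPKM (SD, n = 3 each). In 9-month CD11c+ libraries Pdgfb was again first at 10.3 ± 1.57 RPKM, ahead of Hbegf at 6.05 ± 0.413 RPKM and Pdgfa at 5.35 ± 0.517 RPKM (SD, n = 2 each), with no overlap between these neighbours. Pdgfb was also first in 9-month CD11c- libraries at 3.657 ± 1.598 RPKM (SD, n = 2), ahead of Pdgfa and Hbegf, which overlapped. Pdgfc was last in all 4 groups, between 0.0396 and 0.394 RPKM on average.

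**Figure D4:**
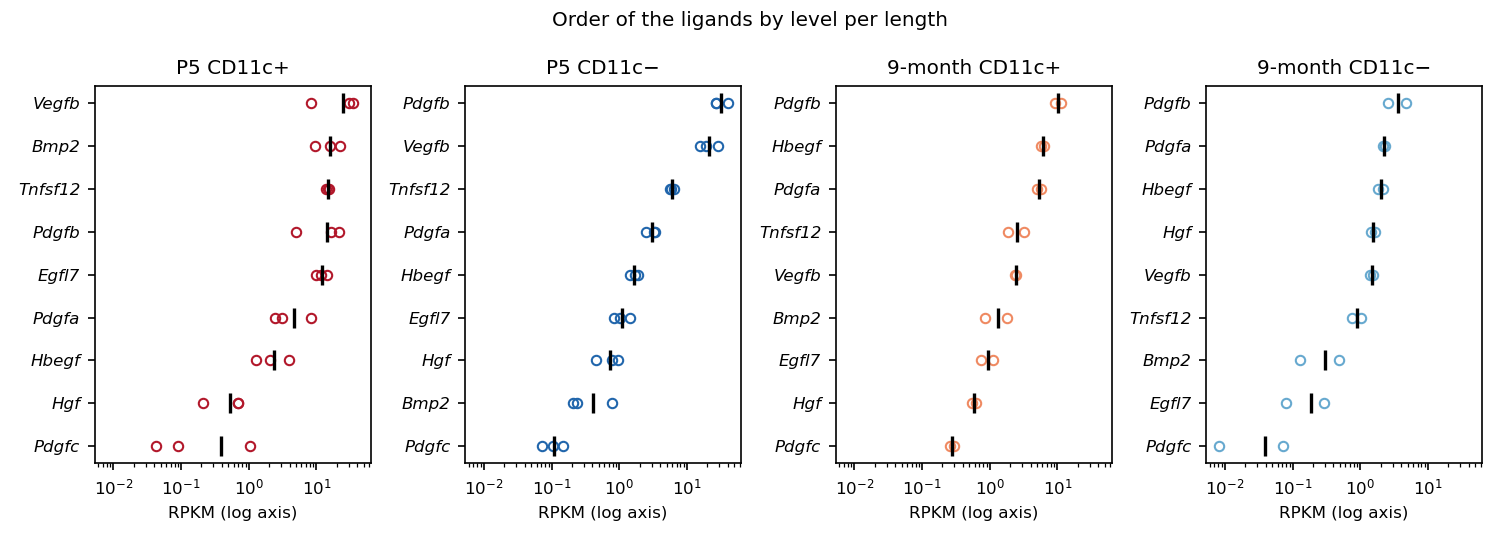
RPKM of each member in each library (circles) with the group mean (vertical mark) on a log axis, ordered by mean within each of the 4 groups. Pdgfb was highest in 3 groups and Vegfb in P5 CD11c+, while Bmp2 was second in P5 CD11c+ and eighth in P5 CD11c-.

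Among the PDGF ligands, Pdgfb, the B chain (ENSMUSG00000000489, chromosome 15, 79995900 to 80014808, minus strand), had 48.5, 14.5 and 62.1 CPM in P5 CD11c+ libraries, against 119.6, 78.6 and 77.5 CPM in P5 CD11c- libraries. All 3 CD11c+ libraries lay below the 3 CD11c- libraries. The log2 fold change was -1.29 ± 0.49, short of the threshold (edgeR adjusted p = 0.63). Without P5 CD11c+ replicate 2 it was -0.88 ± 0.18 and passed (edgeR adjusted p = 0.0306). At 9 months Pdgfb had 33.2 and 26.7 CPM in CD11c+ libraries, against 7.37 and 13.97 CPM in CD11c- libraries. The order was turned round there, with both CD11c+ libraries above both CD11c- libraries, and the log2 fold change of 1.09 ± 0.37 did not pass (edgeR adjusted p = 0.0629). With DESeq2 the 9-month value was 1.07 and passed (DESeq2 adjusted p = 0.0247), and scaled to the homeostatic list it was -0.10 (edgeR adjusted p = 0.81).

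Pdgfa, the A chain (ENSMUSG00000025856, chromosome 5, 138976014 to 138997370, minus strand), had 7.51, 26.0 and 9.62 CPM in P5 CD11c+ libraries, against 10.4, 10.03 and 7.65 CPM in P5 CD11c- libraries. The groups overlapped, the high value being replicate 2. The log2 fold change was 0.42 ± 0.53 (edgeR adjusted p = 0.855), or -0.29 ± 0.23 without that library (edgeR adjusted p = 0.463). At 9 months Pdgfa had 15.5 and 17.8 CPM in CD11c+ libraries, against 7.13 and 6.74 CPM in CD11c- libraries. The groups did not overlap and Pdgfa rose by 0.89 ± 0.25 (edgeR adjusted p = 0.0356). Its call was lost without CD11c+ replicate 1 (edgeR adjusted p = 0.0931), without CD11c+ replicate 2 (0.2) and without CD11c- replicate 1 (0.0654). Of its exon bases 26.1% overlap an antisense gene, 6330403L08Rik, and strand use was not given in the sources used here.

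Pdgfc encodes a PDGF that is activated by cleavage of its CUB domain (ENSMUSG00000028019, chromosome 3, 81036416 to 81214040, plus strand). It had 25 counts over the 3 P5 CD11c+ libraries and 22 over the 3 P5 CD11c- libraries, a ratio of CPM of 1.25 (exact 95% interval 0.679 to 2.33, counting error only), and was too low to be tested. Of the 25 counts 14 lay in replicate 2, at 5.34 CPM with 0.461 and 0.214 CPM in replicates 1 and 3. Without that library the direction turned: 11 counts in CD11c+ and 22 in CD11c- libraries gave a ratio of 0.595 (interval 0.26 to 1.28). At 9 months Pdgfc had 69 counts in CD11c+ and 9 in CD11c- libraries, a ratio of 7.26 (interval 3.61 to 16.5), and its log2 fold change of 2.38 ± 1.07 did not pass (edgeR adjusted p = 0.137).

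Among 9 listed partners of the PDGFs, 4 were tested at each age. Nrp1, which encodes a co-receptor for PDGF and VEGF ligands, rose at 9 months by 1.48 ± 0.17 (edgeR adjusted p = 0.000932), with 275.9 CPM in CD11c+ and 76.6 CPM in CD11c- libraries. At P5, where edgeR called none of the 4 and 1 was higher at an unadjusted p under 0.05, Nrp1 was at 1.76 ± 0.38 (edgeR adjusted p = 0.176). It was called there without P5 CD11c+ replicate 2, at 1.36 ± 0.16 (edgeR adjusted p = 0.00461). The receptor Pdgfrb averaged at most 2.32 CPM in any group, and the receptor Pdgfra, a marker of oligodendrocyte precursors and fibroblasts, at most 1.64 CPM.

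Egfl7 lies on chromosome 2 (ENSMUSG00000026921, 26580014 to 26593120, plus strand). It had 35.4, 51.9 and 41.9 CPM in P5 CD11c+ libraries, against 5.12, 2.95 and 3.62 CPM in P5 CD11c- libraries. Every CD11c+ library was above every CD11c- library, the shallow replicate 2 included, and without replicate 2 its rise at P5 was 3.16 ± 0.21 (edgeR adjusted p = 0.000519). With any 1 of the other 5 P5 libraries left out the call was lost: Egfl7 was at 3.11 to 3.36 with edgeR adjusted p of 0.116 to 0.305. At 9 months Egfl7 had 2.67 and 3.97 CPM in CD11c+ libraries, against 0.290 and 1.04 CPM in CD11c- libraries. The groups did not overlap, over 161 counts in CD11c+ and 30 in CD11c- libraries. The log2 fold change of 1.90 ± 0.76 did not pass (edgeR adjusted p = 0.0979).

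Egfl7 is known as an endothelial gene, and the 22 endothelial markers summed to 125 to 230 CPM in P5 CD11c+ and 125 to 146 CPM in P5 CD11c- libraries. Cldn5, a tight junction gene that defines brain endothelium, was detected in P5 CD11c+ libraries. It was at 0 counts in P5 CD11c-, 9-month CD11c+ and 9-month CD11c- libraries. The other defining endothelial markers, Pecam1, Cdh5 and Flt1, were detected in every group. Of the 9 endothelial markers tested at P5 edgeR called none, with none at an unadjusted p under 0.05 and a median log2 fold change of 0.29. Without P5 CD11c+ replicate 2, 11 were tested, 1 fell (the transporter gene Slco1a4, at -6.46 with edgeR adjusted p = 0.0329), 2 were lower at an unadjusted p under 0.05 and the median was -0.37. Border-associated macrophage markers moved with Egfl7, Bmp2 and Tnfsf12 at P5: 14 of the 24 tested rose, none fell, and the median was 4.76. Without replicate 2 the count was 22 of 24 and the median 4.42. Among them Lyve1 averaged 995 CPM in CD11c+ and 13.5 CPM in CD11c- libraries. The part of these cells in the values of these 3 members was not tested.

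The RefSeq promoter windows of Egfl7, 250 bases before to 50 after each of its 3 annotated starts (build GRCm38.p6), are shown because this member was called at P5. Capitals mark AGGAAGT or its reverse complement ACTTCCT, a core bound by ETS factors such as the macrophage regulator PU.1, searched on both strands.
Egfl7 start at chr2:26580833-26581132 (+): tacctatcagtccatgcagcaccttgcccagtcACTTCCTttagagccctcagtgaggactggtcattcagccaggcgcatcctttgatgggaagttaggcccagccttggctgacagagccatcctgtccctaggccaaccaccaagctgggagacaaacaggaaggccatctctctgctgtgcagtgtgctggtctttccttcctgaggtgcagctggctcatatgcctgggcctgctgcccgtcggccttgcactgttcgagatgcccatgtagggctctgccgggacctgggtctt
Egfl7 start at chr2:26583615-26583914 (+): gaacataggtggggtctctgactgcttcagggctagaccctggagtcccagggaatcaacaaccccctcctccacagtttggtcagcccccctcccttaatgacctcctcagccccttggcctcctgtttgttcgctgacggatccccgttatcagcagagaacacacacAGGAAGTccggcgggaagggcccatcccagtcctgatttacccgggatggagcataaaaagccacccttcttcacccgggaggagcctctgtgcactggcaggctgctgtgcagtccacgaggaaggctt
Egfl7 start at chr2:26586386-26586685 (+): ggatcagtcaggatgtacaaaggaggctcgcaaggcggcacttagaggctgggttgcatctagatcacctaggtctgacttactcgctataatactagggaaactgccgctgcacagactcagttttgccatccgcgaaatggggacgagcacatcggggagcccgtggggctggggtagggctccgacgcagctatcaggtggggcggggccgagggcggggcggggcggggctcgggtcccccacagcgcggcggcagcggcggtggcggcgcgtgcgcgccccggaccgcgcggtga
The first 2 of the 3 windows held the motif. The motif was present in 3 of the 9 promoter windows found for 5 members, and in 9.35% of 32851 RefSeq promoters of the same length. TATAAA was in none of the 9 windows, against 13.6% of all. A match is a description of the letters only. The windows of Pdgfa, Pdgfc and Vegfb, none of which held the motif, are not printed, although Pdgfa was called at 9 months. Windows for Bmp2, Pdgfb, Tnfsf12 and Hbegf are not shown either.

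The microRNA genes Mir126a and Mir126b lie inside Egfl7, and each had 0 counts in all 10 libraries. The mature sequence of the first, from RefSeq on GRCm38.p6, is shown because Egfl7 is known as its host gene, with its seed (bases 2 to 8) in capitals.
mmu-miR-126a-3p at chr2:26591402-26591423 (+): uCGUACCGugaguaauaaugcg
The count tables thus measured the host transcript and gave no value for the microRNA. Egfl7 also shares 64 exon bases with the antisense gene Agpat2. The list of 15 genes set beside Egfl7 holds relatives, Notch partners and the overlapping genes Agpat2, Mir126a and Mir126b. Of these 15, 10 were tested at P5 and edgeR called none, with none at an unadjusted p under 0.05. The smallest p was that of Notch1 at 0.72 ± 0.38 (edgeR adjusted p = 0.794). Notch1 was the 1 called without P5 CD11c+ replicate 2, at 1.02 ± 0.25 (edgeR adjusted p = 0.0457). At 9 months Agpat2 fell by 2.98 (edgeR adjusted p = 0.000715) and Notch1, a receptor that EGFL7 is reported to bind, by 1.83 (edgeR adjusted p = 0.00167). The fold change of Agpat2 also differed between ages, at -3.45 ± 0.68 (edgeR adjusted p = 0.0348).

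Vegfb encodes a VEGF family ligand (ENSMUSG00000024962, chromosome 19, 6982473 to 6987651, minus strand). It had 56.4, 13.4 and 48.2 CPM in P5 CD11c+ libraries, against 46.2, 30.3 and 24.8 CPM in P5 CD11c- libraries. The groups overlapped, with replicate 2 the lowest of all 6. The log2 fold change was 0.07 ± 0.49 (edgeR adjusted p = 0.98), and 0.49 ± 0.18 without replicate 2 (edgeR adjusted p = 0.137). At 9 months it had 3.96 and 3.85 CPM in CD11c+ libraries, against 2.49 and 2.26 CPM in CD11c- libraries, and the log2 fold change of 0.34 ± 0.41 did not pass (edgeR adjusted p = 0.567). Of 6 VEGF list genes tested at P5 edgeR called none, with 2 higher at an unadjusted p under 0.05, and 1, the co-receptor Nrp1, called higher without replicate 2. Of 6 tested at 9 months 3 rose and 1 fell. Kdr, a VEGF receptor, rose by 1.63 ± 0.35 (edgeR adjusted p = 0.0127) and Nrp2 by 0.92 ± 0.28 (edgeR adjusted p = 0.0413). Vegfa, which encodes the main angiogenic VEGF, fell by 2.90 (edgeR adjusted p = 0.0166), with 0.775 CPM in CD11c+ and 4.40 CPM in CD11c- libraries.

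Bmp2 (ENSMUSG00000027358, chromosome 2, 133552159 to 133562885, plus strand) had 56.5, 33.6 and 80.2 CPM in P5 CD11c+ libraries, against 0.741, 2.80 and 0.841 CPM in P5 CD11c- libraries. The lowest CD11c+ library was above the highest CD11c- library. Over each group this came to 2446 counts in CD11c+ and 59 in CD11c- libraries, a ratio of CPM of 45.8 (exact 95% interval 35.4 to 60.3, counting error only). Bmp2 passed without P5 CD11c+ replicate 2, at 5.36 ± 0.51 (edgeR adjusted p = 0.00209). It also passed with DESeq2 (adjusted p = 3.2e-12), and with limma voom (adjusted p = 0.000163), but not with any other P5 library left out. At 9 months Bmp2 had 3.02 and 6.41 CPM in CD11c+ libraries, against 1.70 and 0.452 CPM in CD11c- libraries. The groups did not overlap, and the log2 fold change of 1.78 ± 0.69 did not pass (edgeR adjusted p = 0.0933).

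Of 41 listed BMP pathway genes, 21 were tested at P5 and edgeR called none, with 1 higher and 1 lower at an unadjusted p under 0.05. The smallest p was that of Smad7, an inhibitor of SMAD signalling, at -0.78 ± 0.25 (edgeR adjusted p = 0.478). Without P5 CD11c+ replicate 2, 22 were tested, the receptor Bmpr2 rose by 0.62 (edgeR adjusted p = 0.0421) and the ligand Gdf11 fell by 2.76 (edgeR adjusted p = 0.0461). At 9 months 4 of 21 rose and 4 fell, with a median of 0.09. The co-receptor Eng rose by 1.34 ± 0.19 (edgeR adjusted p = 0.00261), the receptor Acvr1 by 1.73 ± 0.33 (edgeR adjusted p = 0.0078) and the divergent ligand Gdf15 by 1.34 ± 0.27 (edgeR adjusted p = 0.00939). The signal transducer Smad4 fell by 1.17, the BMP target Id1 by 1.22 and the receptor Acvrl1 by 0.75 (edgeR adjusted p = 0.00935, 0.0104 and 0.0177).

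Hbegf encodes a heparin-binding ligand of the EGF receptor and lies on chromosome 18 (ENSMUSG00000024486). It had 3.03, 9.16 and 4.86 CPM in P5 CD11c+ libraries, against 3.37, 3.98 and 4.46 CPM in P5 CD11c- libraries. The groups overlapped and replicate 2 was the highest. The log2 fold change was 0.31 ± 0.63 (edgeR adjusted p = 0.922), or -0.18 ± 0.37 without replicate 2 (edgeR adjusted p = 0.795). At 9 months Hbegf had 13.7 and 15.04 CPM in CD11c+ libraries, against 5.22 and 4.34 CPM in CD11c- libraries. Both CD11c+ libraries were above both CD11c- libraries and Hbegf rose by 1.21 ± 0.28 (edgeR adjusted p = 0.0156); without CD11c+ replicate 2 the call was lost (edgeR adjusted p = 0.0683). Of 11 EGF list genes tested at 9 months 3 rose and 3 fell. The sheddase Adam17, which releases HB-EGF, rose by 1.15 ± 0.18 (edgeR adjusted p = 0.00335), Adam10 by 0.99 ± 0.16 (edgeR adjusted p = 0.0043) and the ligand Tgfa by 0.97 ± 0.22 (edgeR adjusted p = 0.0165). The neuregulins Nrg1 and Nrg4 fell by 4.18 and 2.20 (edgeR adjusted p = 0.00144 and 0.021), and Rhbdf2, a partner of ADAM17, by 1.01 (edgeR adjusted p = 0.0364). At P5 edgeR called none of 12, with 3 higher at an unadjusted p under 0.05. Of these the receptor Egfr had the smallest p and averaged 23.7 CPM in P5 CD11c+ and 1.13 CPM in P5 CD11c- libraries, at 4.12 ± 0.82 (edgeR adjusted p = 0.147). Without replicate 2, Egfr at 4.29, Rhbdf1 at 2.29 and the receptor Erbb3 at 2.09 rose and Nrg1 fell by 3.61 (edgeR adjusted p = 0.0111, 0.000939, 0.0362 and 0.0389).

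Hgf (ENSMUSG00000028864, chromosome 5, 16553495 to 16620152, plus strand) had 4.51 and 3.89 CPM in 9-month CD11c+ libraries, against 11.7 and 10.3 CPM in 9-month CD11c- libraries. It was the only member lower in CD11c+ cells there, both CD11c+ libraries lying below both CD11c- libraries. Hgf fell by 1.76 on the log2 scale (SE 0.29; edgeR adjusted p = 0.00485), over 206 counts in CD11c+ and 511 in CD11c- libraries. With each 9-month library left out in turn it was at -1.84 to -1.61, with edgeR adjusted p of 0.00449 to 0.0113. At P5 Hgf had 5.01, 1.53 and 4.92 CPM in CD11c+ libraries, against 3.23, 5.60 and 6.98 CPM in CD11c- libraries. The groups overlapped, and the log2 fold change was -0.69 ± 0.69 (edgeR adjusted p = 0.824), or -0.30 ± 0.43 without replicate 2 (edgeR adjusted p = 0.699).

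The Hgf promoter windows from RefSeq (GRCm38.p6) are shown because Hgf was called lower at 9 months; capitals mark the same motif.
Hgf start at chr5:16553245-16553544 (+): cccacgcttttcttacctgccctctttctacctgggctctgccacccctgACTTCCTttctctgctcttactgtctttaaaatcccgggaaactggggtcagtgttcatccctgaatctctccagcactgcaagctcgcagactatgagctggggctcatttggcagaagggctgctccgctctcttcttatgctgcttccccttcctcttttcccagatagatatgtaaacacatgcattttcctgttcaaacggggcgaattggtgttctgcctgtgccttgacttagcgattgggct
Hgf start at chr5:16553651-16553950 (+): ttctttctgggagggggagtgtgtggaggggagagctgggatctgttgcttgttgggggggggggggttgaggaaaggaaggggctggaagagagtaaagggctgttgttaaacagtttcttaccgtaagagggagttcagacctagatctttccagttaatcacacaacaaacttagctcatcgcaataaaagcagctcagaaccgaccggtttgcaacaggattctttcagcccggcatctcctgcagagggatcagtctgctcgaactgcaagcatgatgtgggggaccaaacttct
The first window held it and the second did not. At P5 edgeR called none of 10 HGF list genes, with 1 higher and 1 lower at an unadjusted p under 0.05, and the smallest p was that of the protease gene Plau at 1.51 ± 0.26 (edgeR adjusted p = 0.107). With replicate 2 of P5 CD11c+ left out Plau rose by 1.58 (edgeR adjusted p = 0.00712) and Spint1 fell by 1.43 (edgeR adjusted p = 0.0328). Of 9 HGF list genes tested at 9 months 3 rose and 4 fell. The protease St14 and the inhibitor Spint1, which act on HGF activation, rose by 1.34 ± 0.24 (edgeR adjusted p = 0.0061) and 1.16 ± 0.21 (edgeR adjusted p = 0.00698). The urokinase receptor Plaur fell by 3.41, with 105.3 CPM in CD11c+ and 860 CPM in CD11c- libraries (edgeR adjusted p = 2.98e-05). Spint2, another inhibitor of HGF activation, fell by 4.08 and the adhesion receptor Cd44 by 3.18 (edgeR adjusted p = 6.79e-05 and 7.62e-05). The receptor Met, named after its values were seen as the fourth of those that fell, averaged 0.709 CPM in CD11c+ and 7.85 CPM in CD11c- libraries (-3.86; edgeR adjusted p = 0.0025). Of the 22 neutrophil markers tested 21 fell, with a median of -7.07. The defining marker S100a8 averaged 360 CPM in CD11c+ and 37310 CPM in CD11c- libraries, and no defining neutrophil marker was at 0 there. Monocyte markers took 0.123 to 0.135% of counts in 9-month CD11c+ and 1.4 to 1.62% in 9-month CD11c- libraries. Eosinophil and basophil markers took 0.00609 to 0.00669% and 0.191 to 0.2% in the same groups. Of 18 monocyte markers tested there 12 fell and 3 rose, and of 15 eosinophil and basophil markers 14 fell and 1 rose. The part of RNA from these cells in the Hgf value was not tested.

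Tnfsf12 encodes TWEAK, a TNF family ligand (ENSMUSG00000097328, chromosome 11, 69686250 to 69695849, minus strand). It had 23.5, 20.6 and 22.7 CPM in P5 CD11c+ libraries, against 8.62, 8.77 and 9.59 CPM in P5 CD11c- libraries. The groups were tight and did not overlap, with means of 22.3 ± 1.49 and 9.00 ± 0.517 CPM (SD, n = 3 each). The log2 fold change was 1.10 ± 0.27 and did not pass (edgeR adjusted p = 0.231), whereas it was 1.18 ± 0.21 and passed without replicate 2 (edgeR adjusted p = 0.0192). At 9 months Tnfsf12 had 2.79 and 4.79 CPM in CD11c+ libraries, against 1.57 and 1.13 CPM in CD11c- libraries, and the log2 fold change of 1.11 ± 0.52 did not pass (edgeR adjusted p = 0.147). Of its exon bases 48.3% are shared with the same-strand readthrough gene Tnfsfm13, which held 23 to 122 counts per library, so its value is uncertain to that extent. Its receptor gene Tnfrsf12a rose at 9 months by 0.77 ± 0.19 (edgeR adjusted p = 0.0199), with 42.6 CPM in CD11c+ and 19.3 CPM in CD11c- libraries. Cd163, a scavenger receptor reported to bind TWEAK and a marker of border-associated macrophages, rose by 6.12 ± 0.64 at P5 (edgeR adjusted p = 0.0274) and by 4.06 ± 0.32 at 9 months (edgeR adjusted p = 0.00022). It was the only 1 of 11 TWEAK list genes tested that rose at P5, and 4 of 11 rose at 9 months, among them the related receptor gene Tnfrsf13b at 1.05 ± 0.15 (edgeR adjusted p = 0.00275).

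The difference between ages of the CD11c+ over CD11c- fold change, 9-month minus P5, was tested as an interaction over all 10 libraries. None of the 9 members passed with edgeR, where 0.302% of 19555 genes were called higher and 1.56% lower, 1.86% in either direction; at an unadjusted p under 0.05 there were 2, against 16.1% of all genes, and DESeq2 called 2, against 12.1% of all genes, so 2 of 9 members was little above either share. Pdgfb was at 2.47 ± 0.85 (edgeR adjusted p = 0.192) and Bmp2 at -3.08 ± 1.04 (edgeR adjusted p = 0.184), and these are the 2 that DESeq2 called (adjusted p = 0.0301 and 0.0247). Without P5 CD11c+ replicate 2, Pdgfb at 2.05 (edgeR adjusted p = 0.0125), Bmp2 at -3.45 (0.021), Pdgfa at 1.29 (0.0289) and Hbegf at 1.5 (0.0487) passed. In that fit 8.76% of 18348 genes were called higher and 10.3% lower, and any difference in library preparation enters the comparison of ages. Among pathway genes outside the members, 1 was called higher and 1 lower of 101 tested with all libraries, and 16 higher and 12 lower of 95 without P5 CD11c+ replicate 2. The 1 called lower with all libraries was Agpat2, which overlaps Egfl7 and is neither a relative nor a Notch partner. With all libraries, of those not called, the smallest p in each other list was that of Smad4 at -1.41, Met at -3.43, Adam17 at 1.49, Tnfrsf13b at 1.84, Vegfa at -2.03 and Plat at -3.66 (edgeR adjusted p of 0.062, 0.119, 0.187, 0.242, 0.406 and 0.538).

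By the smallest root mean square difference of log2(CPM + 1) over the 10 libraries, after subtracting each gene's mean, the pattern of Egfl7 was most like Psd3, Rnf150 and Etl4, at 0.317, 0.375 and 0.439, among 10884 genes with a mean of 5 CPM or more. The median gene stood at 1.76 from Egfl7. For Bmp2 the nearest were Gprc5c, Itsn1 and Ptprk, at 0.42, 0.459 and 0.529. Psd3 had 55.0 and 6.98 CPM on average in P5 CD11c+ and CD11c- libraries, and Gprc5c 51.9 and 1.54 CPM. For Pdgfb the nearest were Col15a1, Acvr1 and Sall2, and for Tnfsf12 Pgap1, Crim1 and 2610507B11Rik. Those of Hgf were Cd300lg, 2210406H18Rik and Hpcal1. Those of Hbegf were Zfp747, 1110051M20Rik and Sergef, of Pdgfa Ly86, Rabepk and Prss36, and of Vegfb Atp2a2, Fnip2 and 2510039O18Rik. Pdgfc, itself below that minimum, was nearest to Xpo4, 2310057M21Rik and Psmd1 but is too low for its pattern to be compared.

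Other trophic genes outside the 9, listed as neurotrophic or growth factors, were called in 6 of 13 tested at 9 months: 4 rose and 2 fell. Over all genes tested there, 33% were called in either direction. The progranulin gene Grn rose by 1.26 ± 0.15 (edgeR adjusted p = 0.00113), the cytokine gene Clcf1 by 1.33 ± 0.20 (edgeR adjusted p = 0.00316) and the prosaposin gene Psap by 1.07 ± 0.25 (edgeR adjusted p = 0.0177). The cytokine gene Osm fell by 0.74 and Hdgf by 0.90 (edgeR adjusted p = 0.00912 and 0.0187). At P5 edgeR called none of the 15 tested, with 1 higher and 2 lower at an unadjusted p under 0.05. The smallest p was that of Clcf1 at -1.38 ± 0.26 (edgeR adjusted p = 0.124). With replicate 2 of P5 CD11c+ left out Clcf1 fell by 1.27 (edgeR adjusted p = 0.0193) and Nenf, which encodes neudesin, rose by 0.78 (edgeR adjusted p = 0.031). Clcf1 was the one of this list whose fold change differed between ages, at 2.90 ± 0.44 (edgeR adjusted p = 0.018). Over all 8 lists without the members, 88 genes were tested at P5 and 1 was called; without P5 CD11c+ replicate 2, 9 of 89 rose and 4 fell. At 9 months 83 were tested, of which 21 rose and 16 fell. Over all genes tested, 0.299% were called at P5, and 5.06% rose and 4.42% fell there without replicate 2. At 9 months 14.8% of all genes tested rose and 18.2% fell.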

How the data were processed

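RNA-seq counts were analysed for 10 libraries of sorted mouse microglia in 4 groups. What the authors deposited are whole-number read counts for each gene, not normalized. Per the submitters' processing notes reads went through Subread 1.5.2, STAR 2.5.2b and Trimmomatic 0.36, named without an order. How multiply mapped reads were handled, the strand setting and the build are not given in the sources used here. Among 49056 gene identifiers shared with GENCODE M21 (GRCm38), 44858 (91.4%) had the same start and end, and coordinates are those of the deposited tables. All value columns were used (0 left out).

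The 6 P5 and the 4 9-month libraries were fitted separately with edgeR 4.0.16 (R 4.3.3), TMM scaling, filterByExpr and the quasi-likelihood F-test; the difference between ages was the interaction over all 10 libraries. P-values are two-sided, adjusted by Benjamini-Hochberg over all genes tested, with a threshold of 0.05. SEs were derived from the F statistic and the fold change. CPM is the count scaled to the library total and RPKM is CPM per kilobase of the gene length in the tables. The filter on low counts removed Pdgfc at P5; the other 8 members passed there and all 9 at 9 months. The tests were also run on simulated counts. The outcome is not given here, so that run shows no error rate or power for these libraries. Libraries of a group scattered widely at P5, with a fitted relative spread (edgeR, square root of the dispersion) of 0.614. It was 0.273 at 9 months and 0.684 in the interaction fit. Replicates of a group differed by more than sampling noise (25.3 to 208.9 chi-square units per degree of freedom). Depth limits precision: 3 counts are 0.118 to 0.252 CPM in 9 libraries and 1.15 CPM in P5 CD11c+ replicate 2. Intervals on ratios include counting error alone; no molecular identifiers are described.

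Alternatives were DESeq2 1.42.0, limma 3.58.1 voom with sample quality weights, median-of-ratios scaling, scaling to a homeostatic microglia list, no filter, a replicate block, all 10 libraries in 1 fit, and each library left out. All members are named in every comparison. From each of 8 pathway lists the genes called were named, at most the 3 with the smallest p in each direction, or where none was called the smallest p. From 15 marker lists the defining markers could be named, and the 3 most similar genes for each member. Members and lists were chosen with earlier results of these data known.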

Additional observations from a re-analysis of the deposited data

Results flagged for a closer look

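Pdgfb was the one member whose fold change pointed in opposite directions at the 2 ages in every library: all 3 CD11c+ libraries were below all 3 CD11c- libraries at P5, and both were above at 9 months. The difference between ages, 9-month minus P5, was 2.47 ± 0.85 on the log2 scale and did not pass (edgeR adjusted p = 0.192; 2.05 with edgeR adjusted p = 0.0125 without P5 CD11c+ replicate 2). The labels name a low-input kit for the 9-month libraries only, and any difference in preparation cannot be told apart from age. Homeostatic microglia markers had medians of -0.86 at P5 and 1.32 at 9 months. Scaled to the summed counts of that list, Pdgfb was at -0.87 at P5 and -0.10 ± 0.34 at 9 months (edgeR adjusted p = 0.81). The difference between ages was then 0.76 (edgeR adjusted p = 0.34). Relative to the median of all genes on that scale, Pdgfb stood at -1.42 at P5 and 1.08 at 9 months. On the TMM scale these values were -1.35 and 1.06. Subtracting that median largely undoes the rescaling, so it cannot show whether the opposite directions hold on the homeostatic scale.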

How the results depend on the processing

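At P5 the genes called numbered 46 and the members called 1. DESeq2 called 554 genes and 3 members, limma voom 3271 and 4, scaling to the homeostatic list 107 and 2, all 10 libraries in 1 fit 138 and 2, the replicate block 0 and 0, median-of-ratios scaling 53 and 2, and no filter 32 and 2. Leaving out single P5 libraries gave 0 to 1501 genes and 0 to 4 members, the highest of both without CD11c+ replicate 2 and 0 without any other. Directions turned round for Pdgfa (-0.33 with limma voom, -0.29 to 0.61 with a library left out), Hbegf (-0.26 with limma voom, -0.18 to 0.51 with a library left out) and Vegfb (-0.12 with the replicate block, -0.28 to 0.49 with a library left out), none of which passed.

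At 9 months 5202 genes and 3 members were called. Scaling to the homeostatic list gave 8726 genes (116 higher, 8610 lower) and 1 member, all 10 libraries in 1 fit 1158 and 0, and no filter 6153 (2997 higher, 3156 lower) and 6; single libraries left out gave 4006 to 6087 genes and 2 to 6 members. On the homeostatic scale Pdgfa (-0.32), Pdgfb (-0.10), Vegfb (-0.87) and Tnfsf12 (-0.09) turned round. Hgf kept its direction in every alternative run and lost its call with all 10 libraries in 1 fit (edgeR adjusted p = 0.214).

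For the difference between ages 364 genes and 0 members were called. DESeq2 called 2369 genes and 2 members, limma voom 3917 and 5, median-of-ratios scaling 623 genes, the homeostatic list 5969 and 2, no filter 693 and 2, and the replicate block 0 genes; leaving out libraries gave 0 to 3496 genes and 0 to 4 members. Turned round were, on the homeostatic scale, Pdgfa (-1.33), Pdgfc (-1.05), Vegfb (-1.37), Hbegf (-0.84) and Tnfsf12 (-1.66); Vegfb with limma voom (-0.07) and with a library left out (-0.03 to 0.78); Tnfsf12 with DESeq2 (-0.03), with median-of-ratios scaling (-0.02) and with a library left out (-0.15 to 0.70); and Egfl7 with a library left out (-1.81 to 0.41, the highest without 9-month CD11c- replicate 2). Causes were not tested. After each group's mean was subtracted, same-numbered P5 libraries correlated at 0.457, 0.095 and -0.403, and differently numbered ones at -0.473 to 0.459. Same-numbered 9-month libraries correlated at 0.086, a value that is equal in both pairs by construction with 2 libraries per group. These correlations cannot show whether replicate numbers pair the samples.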
